A study of Mus musculus with 12 samples.

Results

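The genes described here are 54 genes of mitosis and of the step from G2 into M phase, chosen by name: mitotic kinases, cyclins and CDC25 phosphatases, kinesins, kinetochore, condensin, spindle and cytokinesis genes, regulators of anaphase, the transcription factor Foxm1 and the proliferation marker Mki67. Of these, 52 had a probe set that named no other gene, among 22180 genes with such a probe set on the array, and each gene's value was its probe set with the highest mean over the 12 arrays. Ccnf and Ncapg shared their probe sets with another gene and were not analysed here. MP cells, in which MYC drives a mouse tumour that models Group 3 medulloblastoma, were taken from cerebella of NSG mice, which are immunodeficient. The cells were then dissociated and plated in neurocult medium with proliferation supplement. They came from 3 tumours, MP525, MP567 and MP570, and total RNA from each was measured in 4 conditions on 1 array each: 25 nM LBH589 for 12 h, 0.00025% DMSO for 12 h, 25 nM LBH589 for 6 h and 0.00025% DMSO for 6 h. LBH589 is panobinostat, an inhibitor of histone deacetylases. Each group therefore holds 3 arrays, 1 per tumour, and each tumour gave 1 culture per condition, so p-values measure only the spread between these arrays.

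Entry into mitosis requires cyclin-bound CDK1, whose inhibitory phosphates are removed by CDC25 phosphatases, and PLK1 and the Aurora kinases then drive the assembly of the spindle. Kinetochores tie the chromosomes to spindle microtubules, the spindle checkpoint kinases and MAD2 delay anaphase until all are attached, and the anaphase-promoting complex with CDC20 then releases separase from securin. Most of these genes are transcribed late in the cell cycle, under FOXM1, B-MYB and the MuvB complex, and are known for their high levels in dividing tumour cells such as those of medulloblastoma.

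All values are the deposited log2 expression values. The 52 genes lay between 7.02 and 12.97, and 51 of them lay above the array's median on every array; the array medians were 7.10 to 7.21. The number of arrays, not a count of reads, limits the precision. The 4 neuronal markers were above the median on every array. Of the 4 photoreceptor markers none was above it on every array: Rcvrn was on 10 of 12, Otx2 on 8, and Crx and Nrl on 0. Of the 5 microglial and macrophage markers only Cx3cr1 was above the median on every array, and the summed log2 level of the 5 was 34.81 to 35.81 under LBH589 at 12 h, against 35.49 to 38.21 under DMSO at 12 h. The 3 endothelial markers summed to 24.58 to 25.96 under LBH589 at 12 h, against 23.08 to 25.23 under DMSO. On every array 5 of the 6 Group 3 and MYC model markers were above the median, Sox2 being the exception, with 3 of 5 granule neuron progenitor, 1 of 4 astrocyte, 2 of 3 oligodendrocyte and 3 of 4 fibroblast markers. Of all these markers, Sox9 (0.90), Syt1 (0.78), Kdr (0.71) and Gli1 (0.71) rose and Npr3 (-1.61), Prom1 (-0.98) and Rbfox3 (-0.72) fell under LBH589 at 12 h (log2 fold changes). These calls from group means belong to the model, neuronal, endothelial and granule neuron progenitor lists. A fit with tumour as a block, which compares the cultures within each tumour, also called markers of other lists at 12 h. With it, 2 microglial and macrophage markers fell, 1 astrocyte marker fell and 1 rose, and 1 fibroblast marker rose. In that fit 2 model and 2 neuronal markers fell, and 2 of each rose, as did 2 endothelial and 2 granule neuron progenitor markers. Over all genes tested 18.5% fell and 18.6% rose with the block. The part of these other cell types in the results below was not tested.

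After 12 h of LBH589, 23 of the 52 mitosis genes fell and 1 rose against DMSO (limma, Benjamini-Hochberg adjusted over 18652 genes, adjusted p under 0.05). Over all genes tested, 9.07% fell and 9.13% rose. With tumour as a block, which compares the cultures within each tumour, 42 fell and 2 rose, where 18.5% of all genes fell and 18.6% rose. The median log2 fold change of the 52 genes was -0.47, against 0.01 over all genes tested. The 10 largest falls among the 23 were those of Ckap2, Plk1, Kif4, Anln, Cenpa, Cenpe, Nuf2, Kif20a, Hmmr and Ccna2, at log2 fold changes of -1.04 to -0.69. The gene that rose in both fits was Pttg1, and Cdca3 rose with the block. Aurkb, Melk, Kif23, Kif2c, Cenpe, Top2a, Hmmr, Ube2c and Pttg1 lost their call from group means with at least 1 of the 12 arrays left out, at adjusted p-values of up to 0.1525 (Pttg1), while all 24 were called with the block whichever tumour was left out. Of the 44 calls with the block, 35 were kept whichever tumour was left out, and those of Bub1, Kif18b, Cenpl, Ndc80, Cdca8, Prc1, Espl1, Cdca3 and Foxm1 were lost without at least 1 tumour. In bulk RNA, fewer cells in G2 and M phase and less RNA per cell cannot be told apart.

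Values within each tumour pointed the same way for most of the genes at 12 h. The LBH589 culture was below the DMSO culture of its own tumour in all 3 tumours for 41 genes, above it in all 3 for 2, and mixed for 9. Over all genes tested, 25.5% were lower and 27.3% higher in all 3. The median over the 52 genes of this difference was -0.44 in MP525, -0.42 in MP567 and -0.62 in MP570, where the medians over all genes were -0.028, -0.021 and 0.073. All 3 LBH589 values lay below all 3 DMSO values for 27 genes and above them for 2, against 15.4% and 16.6% of all genes tested. The 8 genes called in neither direction with the block were Birc5, Cdc25c, Cenpf, Incenp, Kif20b, Ncaph, Nek2 and Spc25.

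**Figure D1:**
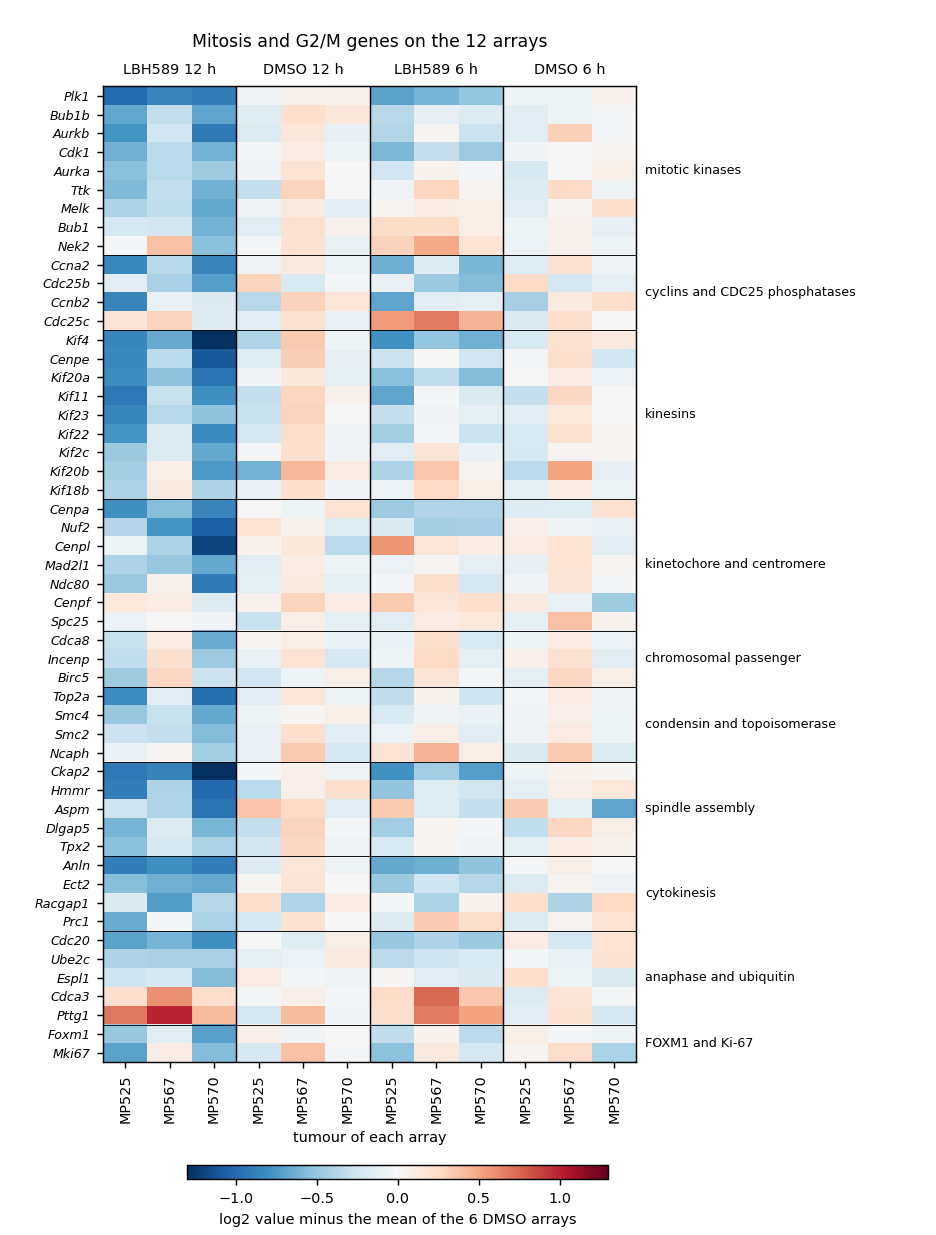
Each row is 1 of the 52 genes, grouped by role, and each column 1 of the 12 arrays. Colour gives the log2 value minus the gene's mean over the 6 DMSO arrays, with blue below and red above. Blue fills most of the LBH589 12 h columns, where 48 of 52 log2 fold changes were negative, against 9150 of the 18652 genes tested. Pttg1 and Cdca3 are red there.

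At 6 h the same comparison gave 8 genes that fell and 1 that rose, where 7.31% of all genes fell and 8.49% rose. The 8 were Plk1, Cdk1, Ckap2, Anln, Kif4, Kif20a, Cdc20 and Ect2, and all 8 also fell at 12 h. The one that rose was Cdc25c. Kif4, Kif20a, Ect2 and Cdc25c lost their call with at least 1 array left out, at adjusted p-values of up to 0.144 (Kif4), and all 9 were called with the block whichever tumour was left out. With the tumour block 17 genes fell and 6 rose (Cdc25c, Pttg1, Cdca3, Cenpf, Nek2 and Ncaph), against 16.0% and 18.0% of all genes, so the share that rose was below that of all genes. The 9 that the block added to the falls were Aurkb, Ccna2, Ccnb2, Cdc25b, Cenpa, Nuf2, Kif11, Kif22 and Ube2c. Of the 23 calls with the block, 12 were kept whichever tumour was left out. Of the others, Kif22 was lost whichever of the 3 was left out, Nek2, Cdc25b, Cenpa, Nuf2 and Ncaph with either of 2 tumours left out, Ccnb2, Ube2c and Cenpf without MP570, and Aurkb and Kif11 without MP525. The median log2 fold change of the 52 genes at 6 h was -0.14, against -0.02 over all genes tested. All 3 LBH589 values lay below the DMSO values for 13 genes and above them for 6, against 16.5% and 16.4% of all genes.

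Averaged over both times, 25 of the 52 genes fell and 3 rose, where 14.4% of all genes fell and 15.7% rose. With the block 37 fell and 3 rose, against 22.2% and 23.7% of all genes.

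**Figure D2:**
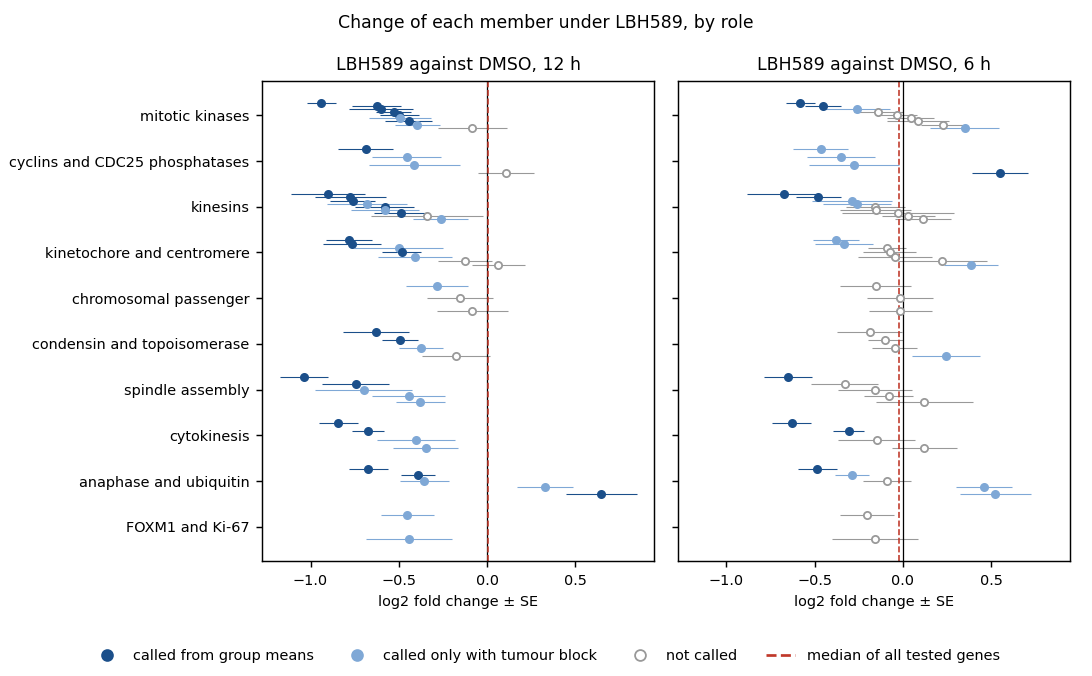
Points are the log2 fold changes of the 52 genes, LBH589 against DMSO, with bars of 1 SE from the fit of group means, by role, at 12 h (left) and at 6 h (right). Dark points were called from group means, pale points only with the tumour block, open points in neither fit. At 12 h nearly all points lie left of 0, with a median of -0.47, and at 6 h the points lie on both sides of 0, with a median of -0.14.

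The promoters of the 6 genes that fell most at 12 h are shown with that of Pttg1, which rose and was chosen for this after its values were seen, because promoters of late cell cycle genes are known to hold 2 short elements. One is the CCAAT box, which NF-Y binds, and the other is the cell cycle genes homology region (CHR), TTTGAA in its usual form, which MuvB complexes bind. The sequences are RefSeq promoters (GRCm38.p6), 300 bases from 250 before to 50 after the gene start, given 5′ to 3′ on the gene's strand. Capitals mark each match to CCAAT or TTTGAA on either strand, so ATTGG and TTCAAA are marked too. Their positions are Ckap2 chr8:22185770-22186069, minus strand, Plk1 chr7:122159185-122159484, plus strand, Kif4 chrX:100625815-100626114, plus strand, Anln chr9:22389157-22389456, minus strand, Cenpa chr5:30666636-30666935, plus strand, Cenpe chr3:135212313-135212612, plus strand, and Pttg1 chr11:43425932-43426231, minus strand.
Ckap2: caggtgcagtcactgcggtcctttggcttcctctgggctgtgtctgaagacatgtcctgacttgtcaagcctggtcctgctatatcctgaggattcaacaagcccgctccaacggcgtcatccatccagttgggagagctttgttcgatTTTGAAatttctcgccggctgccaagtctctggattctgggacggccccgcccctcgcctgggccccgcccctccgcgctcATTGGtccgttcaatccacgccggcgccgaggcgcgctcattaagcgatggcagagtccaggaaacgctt
Plk1: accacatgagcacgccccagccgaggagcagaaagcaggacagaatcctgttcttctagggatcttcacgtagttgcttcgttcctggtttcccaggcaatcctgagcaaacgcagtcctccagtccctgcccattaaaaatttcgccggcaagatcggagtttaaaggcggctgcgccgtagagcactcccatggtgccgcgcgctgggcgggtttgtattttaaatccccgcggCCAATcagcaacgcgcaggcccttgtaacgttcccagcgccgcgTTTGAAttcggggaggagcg
Kif4: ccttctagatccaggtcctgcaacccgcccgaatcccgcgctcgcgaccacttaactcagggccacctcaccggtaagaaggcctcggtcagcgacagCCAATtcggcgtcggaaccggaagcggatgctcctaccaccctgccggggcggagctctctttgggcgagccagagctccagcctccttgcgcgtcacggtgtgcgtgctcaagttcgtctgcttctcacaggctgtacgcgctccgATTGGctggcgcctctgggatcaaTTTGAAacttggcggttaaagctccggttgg
Anln: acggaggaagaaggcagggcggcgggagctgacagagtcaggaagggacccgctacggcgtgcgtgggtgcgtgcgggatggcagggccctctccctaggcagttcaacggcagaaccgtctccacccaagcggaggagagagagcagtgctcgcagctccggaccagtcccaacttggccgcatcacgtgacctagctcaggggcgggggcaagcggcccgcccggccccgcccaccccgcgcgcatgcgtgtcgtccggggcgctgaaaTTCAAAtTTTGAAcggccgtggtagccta
Cenpa: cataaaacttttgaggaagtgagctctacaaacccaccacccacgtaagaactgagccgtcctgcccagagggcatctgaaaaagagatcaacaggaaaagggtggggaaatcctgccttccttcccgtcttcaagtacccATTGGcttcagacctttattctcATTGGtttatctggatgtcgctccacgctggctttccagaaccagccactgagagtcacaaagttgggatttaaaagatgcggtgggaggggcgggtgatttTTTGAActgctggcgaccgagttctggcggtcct
Cenpe: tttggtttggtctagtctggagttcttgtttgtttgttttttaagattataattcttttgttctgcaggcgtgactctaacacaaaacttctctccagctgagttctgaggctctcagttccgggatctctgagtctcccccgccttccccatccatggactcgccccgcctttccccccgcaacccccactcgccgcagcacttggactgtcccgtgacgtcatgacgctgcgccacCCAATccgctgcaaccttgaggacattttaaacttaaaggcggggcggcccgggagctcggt
Pttg1: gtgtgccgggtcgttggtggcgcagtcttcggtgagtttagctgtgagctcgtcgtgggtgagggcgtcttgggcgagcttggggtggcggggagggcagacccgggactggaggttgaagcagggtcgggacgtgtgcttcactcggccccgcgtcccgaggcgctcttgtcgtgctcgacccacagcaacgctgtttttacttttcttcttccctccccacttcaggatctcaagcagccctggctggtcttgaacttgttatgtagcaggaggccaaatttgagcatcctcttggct

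Ckap2, Plk1, Kif4 and Cenpa hold both elements in this window, Anln holds TTTGAA alone, Cenpe holds CCAAT alone, and the window of Pttg1 holds neither spelling. Nuf2, Mad2l1 and Melk, which fell at 12 h (-0.76, -0.48 and -0.44), also hold neither, as do the uncalled Birc5 and Ncaph. Cdca3, which rose with the block (0.33), holds both. Whether these elements go with the direction of change was not tested. In Plk1 the CCAAT match begins 14 bases before the gene start and the TTTGAA match 31 bases after it. In Kif4 the nearest CCAAT match begins 5 bases before the start and the TTTGAA match 20 bases after it. In Ckap2 the order is turned, with TTTGAA beginning at base -101 and CCAAT at base -20, counted from the start.

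Promoters of 45 of the 54 genes were matched by symbol, 47 promoters in all. CCAAT was present in 37 of the 47 (78.7%), against 37.0% of the 17839 promoters of tested genes. TTTGAA was present in 37 of the 47 (78.7%) too, against 13.4% of the promoters of tested genes. Both were present in 33 promoters (70.2%, against 5.3%), and neither in 6 (12.8%, against 54.9%). The known CHR variants TTCGAA and TTTAAA were present in 8.5% and 19.1% of the 47, against 1.8% and 9.9%. In 1 of the 47 promoters a CCAAT match and a TTTGAA match shared a base.

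The TTTGAA matches sat close to the gene start. Of the 48 matches in promoters of these genes, 35 (72.9%) began between 50 bases before and 50 bases after the start, against 23.3% of the matches in promoters of tested genes. For CCAAT the corresponding shares were 35.8% of 81 matches and 26.6%. Among the 43 measured genes with a promoter, the median log2 fold change at 12 h was -0.50 for the 33 with TTTGAA and -0.42 for the 10 without. For CCAAT these medians were -0.50 for the 33 with it and -0.43 for the 10 without. A match describes the letters in this window and is not a measured binding site.

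**Figure D3:**
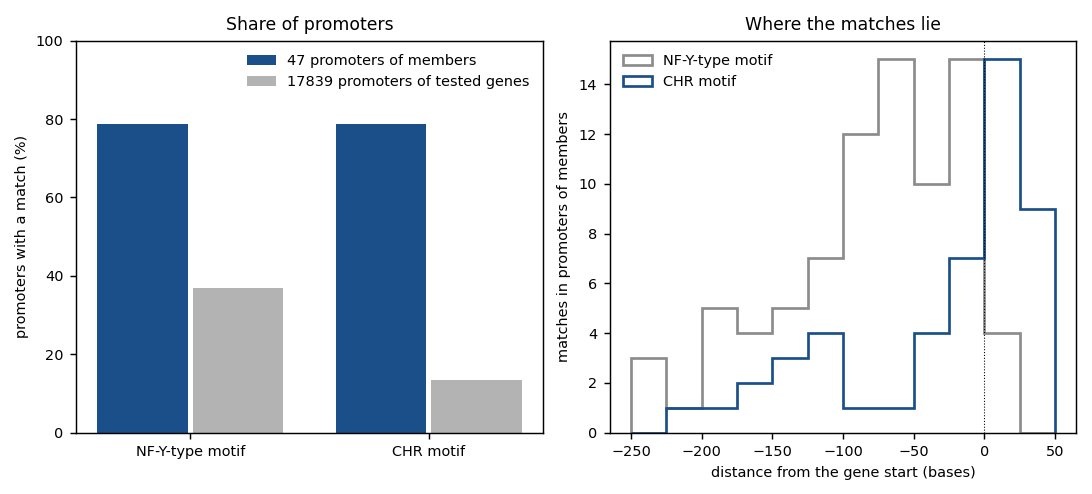
The left panel gives the percent of promoters with a match to CCAAT (the NF-Y-type motif) or to TTTGAA (the CHR motif), in blue for the 47 promoters of the mitosis genes and in grey for the 17839 promoters of tested genes. The right panel counts the matches in the 47 promoters by distance from the gene start in bases, where TTTGAA matches crowd around the start.

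Of the 9 mitotic kinases, 6 fell at 12 h and 8 did so with the block, and at 6 h 2 fell, with 3 falling and 1 rising under the block. Their median log2 fold change was -0.50 at 12 h and -0.03 at 6 h. Plk1 (polo-like kinase 1, which acts from mitotic entry to cytokinesis) fell most, with 10.93, 11.08 and 11.04 under LBH589 at 12 h, against 11.89, 11.99 and 11.98 under DMSO. The 3 values under LBH589 lay close together and far below all DMSO values, and the mean level was 0.522 times that under DMSO (log2 fold change -0.94 ± 0.08 (SE), adjusted p = 5.39e-05). At 6 h Plk1 stood at 11.24, 11.34 and 11.43 under LBH589 at 6 h, against 11.88, 11.87 and 11.99 under DMSO (-0.58 ± 0.08 (SE), adjusted p = 9.15e-04). Plk1 was the only gene of the 52 called at 6 h from group means whichever of the tumours was left out.

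Cdk1, the kinase that triggers mitotic entry, stood at 11.49, 11.78 and 11.50 under LBH589 at 12 h, against 12.09, 12.21 and 12.05 under DMSO (-0.53 ± 0.10 (SE), adjusted p = 0.00384). Its values at 6 h were 11.53, 11.82 and 11.64 under LBH589 at 6 h, against 12.09, 12.11 and 12.15 under DMSO (-0.45 ± 0.10 (SE), adjusted p = 0.0104). The LBH589 and DMSO values did not overlap at either time, and the 2 fold changes were of similar size.

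Aurka, the kinase of centrosome maturation, showed no such fall at 6 h. Its values were 10.94, 11.13 and 11.02 under LBH589 at 12 h, against 11.44, 11.66 and 11.49 under DMSO (-0.50 ± 0.11 (SE), adjusted p = 0.00972). At 6 h they were 11.24, 11.53 and 11.46 under LBH589 at 6 h, against 11.28, 11.49 and 11.56 under DMSO, and the groups overlapped (-0.03 ± 0.11 (SE), adjusted p = 0.899). Aurkb, the kinase of the chromosomal passenger complex, stood at 11.19, 11.72 and 11.05 under LBH589 at 12 h, against 11.79, 12.11 and 11.86 under DMSO (-0.60 ± 0.18 (SE), adjusted p = 0.0401). All 3 LBH589 values lay below the 3 DMSO values at 12 h, but at 6 h the groups overlapped, with 11.59, 11.99 and 11.68 under LBH589 at 6 h, against 11.82, 12.28 and 11.94 under DMSO, and Aurkb was called there only with the block (log2 fold change -0.26, adjusted p = 0.416 without and 0.0154 with it), a call lost without MP525, at an adjusted p of 0.0799.

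Bub1b and Melk also fell at 12 h (log2 fold change -0.63 and -0.44); BUB1B is a spindle checkpoint protein. The calls of Aurkb and Melk at 12 h were lost after quantile normalization and after centring on reference genes. The reference genes were not all steady under LBH589. At 12 h Gusb (-0.80) and Hprt (-0.60) were lower and Actb (0.32) and Rplp0 (0.32) higher, while Gapdh (0.03) and Sdha (0.07) changed little. The checkpoint kinases Bub1 and Ttk fell at 12 h only with the block (-0.40, adjusted p = 0.0501 without and 0.00362 with it, and -0.49, 0.0751 without and 5.06e-04 with it). The call of Bub1 was lost without MP570, at an adjusted p of 0.106. Nek2, a kinase of centrosome separation, had 10.05, 10.25 and 9.93 under LBH589 at 6 h, against 9.67, 9.81 and 9.70 under DMSO at that time, so that all 3 LBH589 values were higher, and it was called only with the block (0.35, adjusted p = 0.284 without and 0.0413 with it), a call lost without MP525 and without MP567, at an adjusted p of up to 0.196. At 12 h Nek2 stood at 9.74, 10.13 and 9.21 under LBH589 at 12 h, against 9.74, 9.94 and 9.66 under DMSO, with overlapping groups and a log2 fold change of -0.08.

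**Figure D4:**
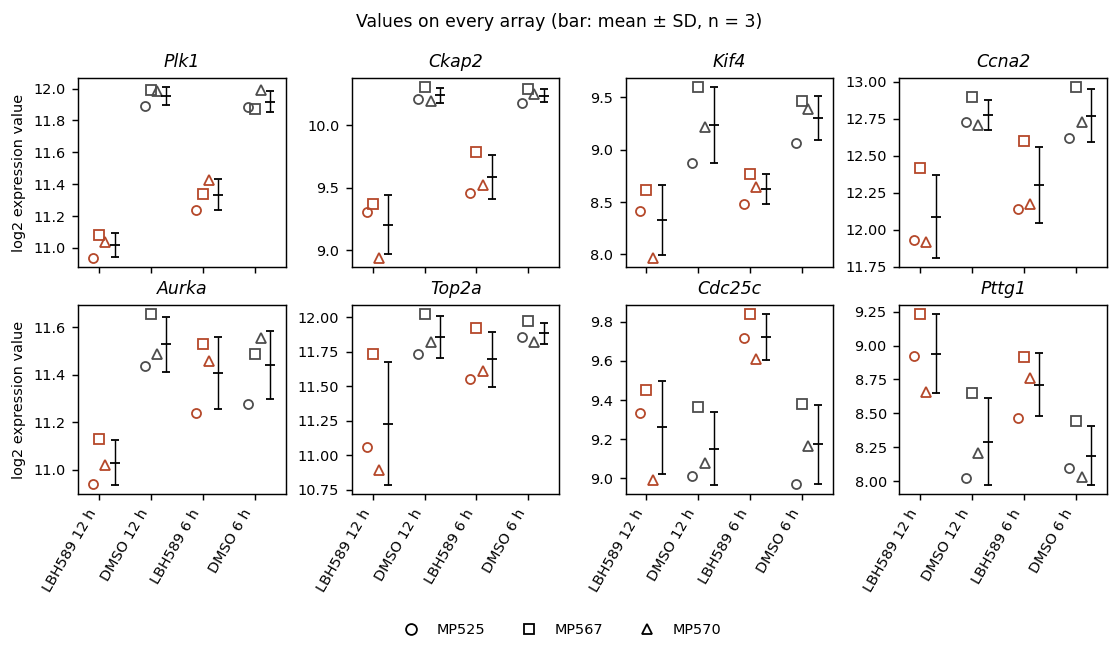
Log2 values of 8 of the genes on every array, with the tumour given by the shape of the point, LBH589 in red and DMSO in grey, and bars for the mean ± SD of 3 arrays. In Plk1, Ckap2, Kif4 and Ccna2 the LBH589 points lie below the DMSO points of the same time, in Aurka only at 12 h, whereas Cdc25c at 6 h and Pttg1 at both times lie above.

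Of the 4 cyclin and CDC25 genes measured, 1 fell at 12 h and 3 did with the block, and at 6 h 1 rose, with 3 falling and 1 rising under the block. Ccna2 (cyclin A2, which partners CDK2 and CDK1) stood at 11.93, 12.41 and 11.92 under LBH589 at 12 h, against 12.73, 12.89 and 12.71 under DMSO (-0.69 ± 0.15 (SE), adjusted p = 0.0098). At 6 h the values were 12.14, 12.60 and 12.18 under LBH589 at 6 h, against 12.62, 12.97 and 12.73 under DMSO, again without overlap, and the fall was called only with the block (-0.47 ± 0.15 (SE), adjusted p = 0.0628 without and 8.20e-05 with it). MP567 was highest of the 3 tumours in all 4 conditions. Ccnb2 (cyclin B2) and Cdc25b fell at both times with the block alone, by 0.41 and 0.46 on the log2 scale at 12 h. Their calls at 6 h were lost without MP570, at an adjusted p of 0.0914, for Ccnb2, and lost without MP525 and without MP570, at an adjusted p of up to 0.0744, for Cdc25b.

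Cdc25c, a phosphatase that activates CDK1, went the other way at 6 h. It stood at 9.72, 9.84 and 9.61 under LBH589 at 6 h, against 8.97, 9.38 and 9.17 under DMSO, and every LBH589 culture was above every DMSO culture (0.55 ± 0.16 (SE), adjusted p = 0.0354). At 12 h the values were 9.33, 9.45 and 8.99 under LBH589 at 12 h, against 9.01, 9.36 and 9.08 under DMSO, which overlapped, and no change was called in either fit (0.11 ± 0.16 (SE), adjusted p = 0.71 without the block and 0.455 with it). The call at 6 h was lost when the arrays were centred on their medians.

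Of the 9 kinesins, motor proteins of the microtubules, 5 fell at 12 h and 8 did with the block. Kif4, the chromokinesin of the spindle midzone, stood at 8.42, 8.62 and 7.96 under LBH589 at 12 h, against 8.88, 9.60 and 9.22 under DMSO (-0.90 ± 0.21 (SE), adjusted p = 0.011). The difference within a tumour was -0.46, -0.99 and -1.26 in MP525, MP567 and MP570. At 6 h Kif4 stood at 8.48, 8.77 and 8.64 under LBH589 at 6 h, against 9.07, 9.46 and 9.39 under DMSO (-0.68 ± 0.21 (SE), adjusted p = 0.0468), and the groups did not overlap at either time. The call at 6 h was lost after quantile normalization, after centring on reference genes and without the filter on dim genes. Kif20a (MKLP2, which carries the passenger complex to the midzone) stood at 10.59, 10.87 and 10.44 under LBH589 at 12 h, against 11.36, 11.55 and 11.27 under DMSO (-0.76 ± 0.13 (SE), adjusted p = 0.0019). At 6 h it stood at 10.85, 11.07 and 10.83 under LBH589 at 6 h, against 11.39, 11.49 and 11.32 under DMSO (-0.48 ± 0.13 (SE), adjusted p = 0.025). Both kinesins were lower in every tumour at both times.

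Cenpe, the kinetochore motor of chromosome alignment, stood at 9.60, 10.09 and 9.35 under LBH589 at 12 h, against 10.28, 10.76 and 10.33 under DMSO (-0.78 ± 0.20 (SE), adjusted p = 0.0196). At 6 h its groups overlapped, at 10.17, 10.45 and 10.20 under LBH589 at 6 h, against 10.43, 10.65 and 10.19 under DMSO (-0.15 ± 0.20 (SE), adjusted p = 0.698). Kif23 and Kif2c fell at 12 h as well (-0.58 and -0.49), while Kif11, the motor that separates the spindle poles, and Kif22 and Kif18b were called at 12 h with the block only (-0.68, -0.58 and -0.26). The call of Kif18b was lost without MP525 and without MP570, at an adjusted p of up to 0.168, and those of Kif23 and Kif2c were lost after quantile normalization and after centring on reference genes. Kif20b was called in neither fit (-0.34, adjusted p = 0.0816 with the block), and its difference at 12 h was 0.18, -0.35 and -0.85 in MP525, MP567 and MP570.

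Of the 7 kinetochore and centromere genes, 3 fell at 12 h and 5 did with the block. Cenpa, the histone H3 variant that marks the centromere, stood at 10.11, 10.36 and 10.05 under LBH589 at 12 h, against 10.92, 10.86 and 11.09 under DMSO (-0.78 ± 0.13 (SE), adjusted p = 0.00177). At 6 h it stood at 10.44, 10.52 and 10.52 under LBH589 at 6 h, against 10.74, 10.76 and 11.11 under DMSO, without overlap, and was called with the block only (-0.38 ± 0.13 (SE), adjusted p = 0.0698 without and 0.0117 with it), a call lost without MP525 and without MP570, at an adjusted p of up to 0.104. Nuf2, a subunit of the NDC80 complex that grips microtubules, stood at 10.35, 9.96 and 9.67 under LBH589 at 12 h, against 10.91, 10.78 and 10.58 under DMSO (-0.76 ± 0.16 (SE), adjusted p = 0.00772). At 6 h Nuf2 stood at 10.55, 10.29 and 10.30 under LBH589 at 6 h, against 10.80, 10.70 and 10.64 under DMSO, again without overlap, and was called with the block only (-0.33 ± 0.16 (SE), adjusted p = 0.217 without and 0.0138 with it), a call lost without MP567 and without MP570, at an adjusted p of up to 0.0941.

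The subunits of the NDC80 complex did not all share the call of Nuf2. Ndc80 was called at 12 h with the block only (-0.41, adjusted p = 0.222 without and 0.0166 with it), and Spc25 in neither fit (0.06, adjusted p = 0.673 with the block; its sign turned when the arrays were centred on their medians). The call of Ndc80 was lost without MP525 and without MP570, at an adjusted p of up to 0.215. Whether these subunits differ from each other was not tested. Mad2l1, which encodes the checkpoint protein MAD2, fell at 12 h (-0.48), and Cenpl fell with the block only (-0.50), a call lost without MP567 and without MP570, at an adjusted p of up to 0.143. Cenpf, a kinetochore protein made in G2, stood at 10.25, 10.07 and 10.13 under LBH589 at 6 h, against 10.03, 9.81 and 9.45 under DMSO, all 3 LBH589 values being higher, and rose with the block only (0.39, adjusted p = 0.117 without and 0.0141 with it), a call lost without MP570, at an adjusted p of 0.231. At 12 h Cenpf stood at 10.05, 10.0003 and 9.74 under LBH589 at 12 h, against 9.97, 10.19 and 10.0016 under DMSO, with overlap and a log2 fold change of -0.13.

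The 3 chromosomal passenger genes besides Aurkb, which place that kinase at the centromere and midzone, had the smallest median fold change of the role classes at 12 h, -0.15. Cdca8 (borealin) had the largest, with 9.87, 10.27 and 9.52 under LBH589 at 12 h, against 10.20, 10.25 and 10.08 under DMSO, which overlapped. It was called with the block only (-0.29 ± 0.18 (SE), adjusted p = 0.314 without and 0.0455 with it), and this call was lost without MP525 and without MP570, at an adjusted p of up to 0.384. Incenp and Birc5 (survivin) were called in neither fit at either time, at -0.15 and -0.08 at 12 h. In MP567 the LBH589 culture was above the DMSO culture at 12 h in all 3 genes, by 0.02, 0.03 and 0.32 for Cdca8, Incenp and Birc5.

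Of the 4 condensin and topoisomerase genes measured, 2 fell at 12 h and 3 did with the block. Top2a, the topoisomerase that untangles sister chromatids, stood at 11.06, 11.74 and 10.89 under LBH589 at 12 h, against 11.73, 12.03 and 11.82 under DMSO (-0.63 ± 0.19 (SE), adjusted p = 0.0359). The LBH589 culture of MP567 overlapped the DMSO values, while those of MP525 and MP570 lay well below them. The call was lost after quantile normalization and after centring on reference genes. At 6 h Top2a stood at 11.55, 11.92 and 11.61 under LBH589 at 6 h, against 11.86, 11.97 and 11.82 under DMSO, and no change was called (-0.19 ± 0.19 (SE), adjusted p = 0.585 without the block and 0.204 with it). Smc4, a core ATPase of condensin, fell at 12 h (-0.49), and its partner Smc2 fell with the block only (-0.37). Ncaph, the kleisin subunit of condensin I, stood at 10.94, 11.21 and 10.84 under LBH589 at 6 h, against 10.58, 11.10 and 10.58 under DMSO, with overlap but a higher value in every tumour, and rose with the block only (0.24, adjusted p = 0.474 without and 0.042 with it), a call lost without MP525 and without MP570, at an adjusted p of up to 0.196. At 12 h Ncaph stood at 10.68, 10.78 and 10.32 under LBH589 at 12 h, against 10.66, 11.10 and 10.55 under DMSO and was called in neither fit (-0.18).

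All 5 genes of spindle assembly fell at 12 h with the block, 2 of them also from group means. Ckap2, a spindle protein that promotes microtubule nucleation, had the largest fall of the 52 genes, with 9.31, 9.37 and 8.94 under LBH589 at 12 h, against 10.22, 10.31 and 10.20 under DMSO. Every LBH589 value lay well below the DMSO values, and the mean level was 0.487 times that under DMSO (-1.04 ± 0.14 (SE), adjusted p = 4.92e-04). At 6 h Ckap2 stood at 9.46, 9.79 and 9.52 under LBH589 at 6 h, against 10.18, 10.29 and 10.25 under DMSO (-0.65 ± 0.14 (SE), adjusted p = 0.00797). Hmmr, a hyaluronan receptor that also binds spindle microtubules, stood at 8.41, 8.91 and 8.30 under LBH589 at 12 h, against 8.96, 9.37 and 9.52 under DMSO (-0.74 ± 0.19 (SE), adjusted p = 0.0182). At 6 h Hmmr stood at 8.79, 9.15 and 9.07 under LBH589 at 6 h, against 9.18, 9.38 and 9.45 under DMSO, without overlap, but it was called in neither fit (-0.33 ± 0.19 (SE), adjusted p = 0.296 without the block and 0.0608 with it). Aspm, Dlgap5 and Tpx2, the last an activator of Aurora A, were called at 12 h with the block only (-0.70, -0.44 and -0.38).

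All 4 cytokinesis genes fell at 12 h with the block, and 2 from group means. Anln (anillin, the scaffold of the contractile ring) stood at 9.72, 9.83 and 9.72 under LBH589 at 12 h, against 10.45, 10.78 and 10.56 under DMSO (-0.84 ± 0.11 (SE), adjusted p = 4.46e-04). At 6 h it stood at 9.95, 9.99 and 10.09 under LBH589 at 6 h, against 10.61, 10.70 and 10.62 under DMSO, with no overlap (-0.63 ± 0.11 (SE), adjusted p = 0.00276). Ect2, the exchange factor that activates RhoA at the division plane, fell at both times (-0.67 ± 0.09 at 12 h and -0.31 ± 0.09 at 6 h (SE), adjusted p = 4.65e-04 and 0.0344). At 6 h Ect2 was no longer called after quantile normalization, after centring on reference genes and in the fit without a mean-variance trend. Its partner Racgap1 and the midzone bundler Prc1 were called at 12 h with the block only (-0.40 and -0.35), that of Prc1 being lost without MP525 and without MP570, at an adjusted p of up to 0.0727.

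The 5 genes of anaphase and ubiquitin control were split in direction. Cdc20 (an activator of the anaphase-promoting complex) and Ube2c (its ubiquitin-conjugating enzyme) fell at 12 h (-0.67 and -0.39), and Espl1 (separase) with the block only (-0.36). The call of Espl1 was lost without MP570, at an adjusted p of 0.107, and that of Ube2c was lost after centring on reference genes. Pttg1 (securin, the inhibitor of separase) rose, with 8.92, 9.24 and 8.66 under LBH589 at 12 h, against 8.03, 8.65 and 8.21 under DMSO. All 3 LBH589 values lay above the DMSO values, and the mean level was 1.56 times that under DMSO (0.65 ± 0.20 (SE), adjusted p = 0.0437, 3.50e-04 with the block). The call from group means was lost after quantile normalization, after centring the arrays on their medians and without the filter on dim genes. At 6 h Pttg1 stood at 8.46, 8.91 and 8.76 under LBH589 at 6 h, against 8.10, 8.44 and 8.03 under DMSO, without overlap, and was called with the block only (0.52 ± 0.20 (SE), adjusted p = 0.105 without and 0.00192 with it).

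Cdca3, which encodes a ubiquitin ligase adaptor that targets WEE1, was higher at both times too. It stood at 9.76, 10.14 and 9.76 under LBH589 at 12 h, against 9.53, 9.62 and 9.53 under DMSO, and at 9.79, 10.29 and 9.89 under LBH589 at 6 h, against 9.37, 9.72 and 9.52 under DMSO. The groups did not overlap at either time, and both differences were called with the block only (0.33 at 12 h, adjusted p = 0.189 without and 0.0111 with it, and 0.46 at 6 h, 0.0748 without and 0.00137 with it). The call at 12 h was lost without MP567, at an adjusted p of 0.108.

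Foxm1, the transcription factor of late cell cycle genes, stood at 9.58, 9.92 and 9.37 under LBH589 at 12 h, against 10.13, 10.03 and 10.06 under DMSO. The groups did not overlap, and the fall was called with the block only (-0.45 ± 0.15 (SE), adjusted p = 0.0616 without and 0.00592 with it), a call lost without MP525 and without MP570, at an adjusted p of up to 0.131. Mki67 (Ki-67, the antigen of dividing cells) stood at 11.28, 12.07 and 11.41 under LBH589 at 12 h, against 11.76, 12.36 and 11.96 under DMSO, with overlap between the groups but a lower value in every tumour, and was likewise called with the block only (-0.44 ± 0.24 (SE), adjusted p = 0.255 without and 0.00692 with it). Neither gene was called at 6 h, where the log2 fold changes were -0.20 and -0.16.

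Whether the genes changed with time was asked within each treatment. Under LBH589, the difference of 12 h from 6 h was negative for 51 of the 52 genes, with a median of -0.32. Over the 18652 genes tested it was negative for 8750, with a median of 0.01. None of the 52 was called from group means, where 0% of all genes were called. An unadjusted p under 0.05 was found for 25 of the 52 and for 1415 of the 18652 genes tested. With the tumour block 21 of the 52 were lower at 12 h than at 6 h and none higher, where 1.27% of all genes were lower and 0.724% higher. They were Cenpl, Ttk, Cenpe, Bub1, Melk, Aspm, Prc1, Top2a, Mad2l1, Cdc25c, Aurkb, Kif23, Kif2c, Ncaph, Kif11, Aurka, Smc4, Smc2, Plk1, Tpx2 and Racgap1. Without MP567 only 5 of the 52 were called. Without MP525, and likewise without MP570, 0 were called with the block.

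The largest change with time under LBH589 was that of Cenpl, a subunit of the constitutive network at the centromere. It stood at 8.16, 7.80 and 7.02 at 12 h, against 8.78, 8.37 and 8.31 at 6 h, so that each tumour was lower at 12 h and MP570 most (-0.83 ± 0.15 (SE), adjusted p = 0.0185 with the block). Ttk (MPS1, the kinase that starts the spindle checkpoint) stood at 9.34, 9.61 and 9.29 at 12 h, against 9.87, 10.19 and 9.95 at 6 h. All 3 values at 12 h were below all 3 at 6 h (-0.59 ± 0.09 (SE), adjusted p = 0.00961 with the block). Pttg1 was the gene that did not go down, at 0.23.

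Under DMSO none of the 52 genes was called between 12 h and 6 h, from group means (0.0214% of all genes called) or with the block (0.311% of all genes). From group means, 0 of the 52 and 412 of the 18652 genes tested had an unadjusted p under 0.05. The median change of the 52 was 0.00, and the largest was that of Aspm, 0.33, with an adjusted p of 0.481 with the block. The difference between the LBH589 effects at 12 h and at 6 h was called for none of the 52 in either fit (0% and 0.0107% of all genes). From group means, 13 of the 52 and 490 of the 18652 genes tested had an unadjusted p under 0.05. The difference was negative for 49 of the 52, with a median of -0.36, and for 9241 of the 18652, with a median of 0.00. The lowest adjusted p among the 52, with the block, was 0.124 for Aspm. The comparisons of treatment and of time share arrays, so their counts are not independent of each other.

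**Figure D5:**
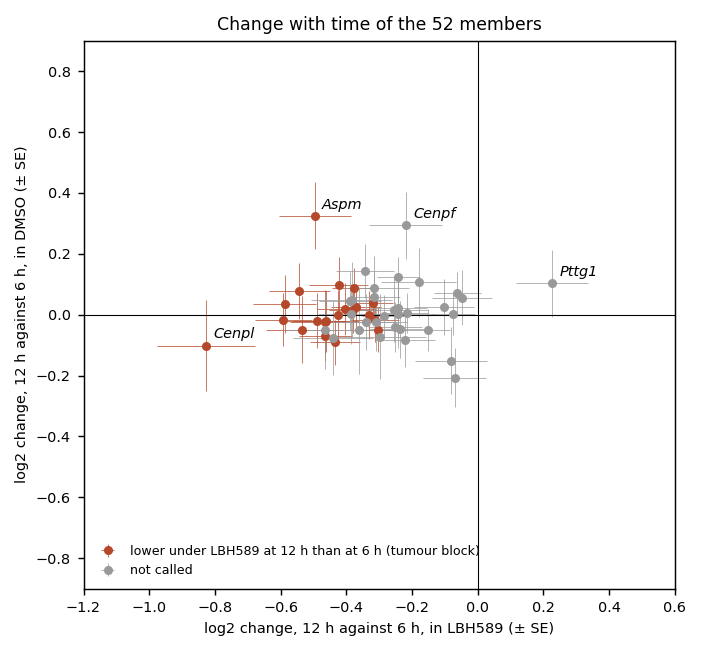
Each point is 1 of the 52 genes, with its log2 change between 12 h and 6 h under LBH589 on the horizontal axis and under DMSO on the vertical axis, with bars of 1 SE from the fit with the tumour block. Red points are the 21 genes called lower at 12 h under LBH589. Nearly all points lie left of 0, with a median of -0.32, and they lie around 0 on the vertical axis.

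The tumours differed in the level of these genes. Each tumour is 1 tumour with 4 cultures, so these differences describe the 3 tumours and not a class of tumours. In a fit of tumour and group, 30 of the 52 genes were higher and 3 lower in MP567 than in MP525, where 13.4% of all genes were higher and 13.9% lower. Against MP570, 24 were higher and 1 lower in MP567, where 10.8% of all genes were higher and 14.4% lower. Between MP570 and MP525, 5 were higher and 5 lower, where 11.2% and 7.63% of all genes were. The median log2 differences were 0.26, 0.23 and 0.03.

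MP567 had the highest value of the 3 tumours for 41 genes under LBH589 at 12 h, 40 under DMSO at 12 h, 40 under LBH589 at 6 h and 34 under DMSO at 6 h. Over all genes tested MP567 was the highest for 30.1%, 39.9%, 38.6% and 36.5% in these groups. The 19 genes higher in MP567 than in both others were Aurkb, Ccna2, Cdc25c, Cdca3, Cenpe, Dlgap5, Incenp, Kif11, Kif18b, Kif20a, Kif20b, Kif22, Kif2c, Mki67, Ncaph, Ndc80, Pttg1, Top2a and Ttk. They come from every role class but cytokinesis, and among them are genes that fell and genes that rose under LBH589. The share of all genes tested that were higher in MP567 than in both others was not counted.

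Kif20b had the largest difference between MP567 and MP525 (0.80 ± 0.12 (SE), adjusted p = 3.08e-04). Mki67 differed by 0.56 ± 0.10 (SE, adjusted p = 7.86e-04) from MP525 and by 0.51 ± 0.10 (SE, adjusted p = 0.00163) from MP570. Racgap1 was lower in MP567 than in both others, with log2 differences of -0.54 ± 0.06 from MP525 and -0.49 ± 0.06 from MP570 (SE, adjusted p = 2.90e-05 and 5.97e-05). Racgap1 stood at 11.78, 11.18 and 11.67 under DMSO at 12 h in MP525, MP567 and MP570, and MP567 was lowest in all 4 groups. Ccnb2 was lower in MP525 than in both others, with MP567 minus MP525 at 0.63 ± 0.06 and MP570 minus MP525 at 0.60 ± 0.06 (SE, adjusted p = 6.83e-06 and 2.82e-05).

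The effect of LBH589 itself was not called different between the tumours for any of the 52 genes (tumour-by-treatment terms, 1.06% of all genes called). Of the 52, 2 had an unadjusted p under 0.05, and the share of all genes at that level was not counted. With 1 array per tumour, treatment and time, the cultures at 6 h and 12 h served as replicates of a tumour's effect. A change of the effect between these times counted as spread, so a difference between tumours could be missed. The lowest adjusted p of the 52 was that of Cdc20, 0.156. Its differences within a tumour at 12 h were -0.70, -0.45 and -0.87 in MP525, MP567 and MP570.

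Other genes of the same processes were counted in 7 lists, beside 9.07% of all genes falling and 9.13% rising at 12 h, or 18.5% and 18.6% with the block. Of 32 other kinetochore and centromere genes, 10 fell and none rose (17 and 3 with the block), with Ska2 at -1.16 ± 0.22, Pmf1 at -1.08 ± 0.22, Sgo1 at -0.95 ± 0.21 and Cenpi at -0.94 ± 0.17 (SE). Sgo1 (shugoshin) shields centromeric cohesin. Of 28 other kinesin, spindle and cytokinesis genes, 8 fell and none rose (15 and 0 with the block), led by Trip13 (-1.04 ± 0.14), an ATPase that remodels MAD2, and Plk4 (-0.88 ± 0.20), the kinase of centriole duplication. Of 8 other condensin and chromosome structure genes, 3 fell and none rose (5 and 0 with the block): Cdca2 (-0.82 ± 0.13), Nusap1 (-0.61 ± 0.16) and Smc6 (-0.48 ± 0.15).

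Of 13 cohesin genes, whose ring holds sister chromatids together, 5 fell and none rose (8 and 0 with the block). Stag1 had a log2 fold change of -1.33 ± 0.18, Stag2 of -1.01 ± 0.18, Smc1a of -0.85 ± 0.12 and Pds5a of -0.80 ± 0.15 (SE). Of 17 genes of the anaphase-promoting complex and mitotic exit, 6 fell and 1 rose (9 and 3 with the block, the 3 being close to the share of all genes that rose), with Fbxo5 (EMI1, an inhibitor of the complex) at -1.04 ± 0.23, Anapc4 at -0.72 ± 0.18 and Anapc1 at -0.64 ± 0.12. The subunit that rose was Anapc7, at 0.38 ± 0.12 (adjusted p = 0.0443).

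Of 13 genes of a list named for entry into mitosis, 4 fell and none rose (6 and 0 with the block). The kinase Wee1 (-0.99 ± 0.22) inhibits CDK1 and the phosphatase Cdc25a (-0.92 ± 0.16) activates cyclin-dependent kinases. The other two do not control mitotic entry: Cdca7 (-1.12 ± 0.11) is a MYC target that works with the chromatin remodeller HELLS, and Lmnb1 (-0.75 ± 0.10) is lamin B1 of the nuclear lamina. Of 21 genes of MuvB, DREAM and cell cycle transcription, 8 fell and 1 rose (10 and 2 with the block). Lin9, a core subunit of MuvB, had -1.50 ± 0.18 at 12 h and -1.15 ± 0.18 at 6 h (adjusted p = 2.93e-04 and 0.00146), larger falls than those of any of the 52 mitosis genes. Mybl2 (B-MYB) had -0.95 ± 0.19, E2f7 -0.90 ± 0.23 and Nfyc, a subunit of NF-Y, -1.04 ± 0.12 at 12 h. Of the other NF-Y subunits, Nfyb also fell at 12 h (-0.61 ± 0.17), and Nfya was called in neither fit (-0.06). The other MuvB subunits, Lin37 (0.21), Lin52 (0.07), Lin54 (-0.08) and Rbbp4 (-0.02), were called in neither fit at 12 h. Mybl1 (A-MYB) was higher, at 0.94 ± 0.18 at 12 h and 1.31 ± 0.18 at 6 h (adjusted p = 0.0039 and 7.43e-04).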

How the data were processed

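Total RNA of 12 cultures was hybridised after Ambion WT Expression amplification and biotin labelling, per the labels' protocols. The deposited values are on a log2 scale, read from their range of 1.5 to 14.5. The submitters' processing notes name Agilent Feature Extraction 10.7.3.1, and background correction and normalization are not given in the sources used here. Of 41345 probe sets, 23521 name 1 gene in the platform annotation (23328 updated through RefSeq), 1814 name several and were left out, and 16010 are not listed there. Genes above the array's 25th percentile on at least 3 of 12 arrays were tested, 18652 of 22180.

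Group means were compared with limma 3.58.1 in R 4.3.3 (lmFit, eBayes with trend, 8 residual degrees of freedom), with Benjamini-Hochberg adjustment over all tested genes and a threshold of 0.05. A fit with tumour as a block (6 degrees of freedom) stands beside it. The fit of the tumour-by-treatment terms had 5 degrees of freedom, with the 6 h and 12 h cultures of a tumour as replicates. The replicate number is the tumour, so the numbers pair the arrays: deviations from group means correlated at 0.45 to 0.805 in the 18 pairs of the same tumour and at -0.51 to -0.0577 in pairs of different tumours in different groups. The fits were also run on simulated data, whose setting and outcome are not given here. Values are given on every array for the 10 largest calls at 12 h, the largest per role, each gene called higher in either fit, and 7 fixed genes (Mki67, Foxm1, Ccna2, Cdk1, Aurka, Aurkb and Top2a). Up to 4 called genes per wider list and direction are named, with the remaining subunits of MuvB and NF-Y added after their values were seen. Cenpl, Ttk, Kif20b, Racgap1, Ccnb2 and Cdc20 were also given values, chosen after their values were seen. The genes and lists were chosen with earlier results of these data known.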

Additional observations from a re-analysis of the deposited data

Results flagged for a closer look

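For 4 of the 52 genes, the LBH589 culture was below the DMSO culture of its tumour at 12 h in all 3 tumours and above it at 6 h in all 3: Bub1, Ttk, Kif18b and Prc1. This is 7.69% of the 52 genes, and 1.57% of all genes tested had opposite signs at the 2 times in all 3 tumours. The LBH589 effect at 12 h minus that at 6 h was -0.62 for Bub1, -0.57 for Ttk, -0.38 for Kif18b and -0.47 for Prc1. The differences within MP525, MP567 and MP570 for Bub1 were -0.08, -0.44 and -0.66 at 12 h, against 0.31, 0.19 and 0.19 at 6 h. For Ttk they were -0.26, -0.59 and -0.62 at 12 h, against 0.13, 0.02 and 0.10 at 6 h. For Kif18b they were -0.32, -0.11 and -0.37 at 12 h, against 0.04, 0.16 and 0.15 at 6 h, and for Prc1 -0.42, -0.22 and -0.41 at 12 h, against 0.01, 0.30 and 0.06 at 6 h. In limma's test of the difference between the effects none of the 4 was called: the adjusted p was 1.0 for all 4 from group means, and 0.187, 0.188, 0.338 and 0.293 with the tumour block. The 4 genes were picked out by these signs, and several of the values at 6 h lie near 0.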

How the results depend on the processing

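With the tumour as a replicate block, the genes called among the 52 numbered 44 at 12 h (24 without it), 23 at 6 h (9) and 21 between 12 h and 6 h under LBH589 (0). In alternatives chosen after seeing the data, the block with arrays centred on their medians gave 44, 21 and 28, and the block with reference genes 42, 22 and 11. With single arrays or whole tumours left out, with or without the block, the counts were 6 to 43 at 12 h, 1 to 22 at 6 h, 11 to 41 averaged over both times and 0 to 5 for time under LBH589. The count at 12 h was 11 without MP525 and 6 without MP570, that at 6 h 2 and 1, and that over both times 18 and 11, all from group means of 2 tumours. At 6 h it was 5 without the LBH589 array of MP525 or of MP570. Of the 24 calls at 12 h from group means, 15 were kept with any 1 array left out, and all 24 with any tumour left out in the fit with the block, where 35 of the block's 44 calls at 12 h and 12 of its 23 at 6 h were kept. Without the group term, the tumour differences gave 4 calls (MP567 minus MP525), 1 (MP567 minus MP570) and 1 (MP570 minus MP525). With 1 array left out, MP570 minus MP525 gave 6 to 12 calls, the 6 without the LBH589 or the DMSO array of MP570 at 6 h. Quantile normalization, either centring, the filters, the probe set rules and the fit without trend kept the counts at 12 h within 18 to 30 and at 6 h within 7 to 10. The difference of effects, time under DMSO and the tumour-by-treatment terms gave 0 calls in each of these fits. The block changed no call in the difference of effects or in time under DMSO.

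Signs turned for 16 gene results, none of them called from group means. With arrays or tumours left out the log2 fold changes at 6 h ran from -0.12 to 0.052 (Aurka), -0.012 to 0.21 (Ttk), -0.043 to 0.14 (Melk), -0.21 to 0.22 (Kif20b), -0.063 to 0.10 (Kif2c), -0.16 to 0.063 (Ndc80), -0.18 to 0.066 (Spc25), -0.14 to 0.06 (Incenp), -0.14 to 0.074 (Cdca8), -0.11 to 0.006 (Smc2), -0.14 to 0.37 (Aspm), -0.18 to 0.023 (Espl1) and -0.34 to 0.048 (Mki67), and at 12 h from -0.30 to 0.16 (Nek2), -0.027 to 0.16 (Spc25) and -0.30 to 0.067 (Birc5). Centring on array medians, with or without the block, gave -0.007 for Kif2c at 6 h and -0.024 for Spc25 at 12 h. The cause of these changes was not tested. The arrays limit the precision: 3 a group, from 3 tumours.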
